A study of Mus musculus with 19 samples.

Results

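Blood progenitors of the mouse hold open chromatin at gene starts and at many places far from them. The regions described here are the distal ones that were open in every group measured: stretches that carried a peak in fetal HSC, adult HSC, fetal LMPP and adult LMPP alike and lay more than 1000 bp from every listed gene start. Peaks of the 4 lists that shared at least 1 bp were merged into 77133 regions, of which 62585 were distal. A total of 13446 regions met the rule, which is 17.4% of all merged regions, 21.5% of the distal ones and 56.8% of the 23657 regions with a peak in all 4 lists. The members were selected on the presence of a peak, so their presence in 4 lists and their distance are not results.

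HSC are hematopoietic stem cells and LMPP are lymphoid-primed multipotent progenitors, both sorted from C57BL/6 mice. HSC were gated as cKit+, Sca1+, CD150+, CD48- and Flt3-, and LMPP as cKit+, Sca1+, CD48+, Flt3+ and CD150-. Cells with CD3, Gr1, B220 or ter119 were left out, in adult marrow also those with CD11b. Fetal cells came from the liver at E14.5 and adult cells from bone marrow at 12 weeks of age. ATAC-seq, in which a transposase cuts accessible DNA, gave 1 list of peaks per group, and each group had 2 ATAC replicates. RNA-seq gave 11 libraries, 3 for each group except fetal HSC with 2, and the submitters call the replicates biological.

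Distal open regions include enhancers, which raise transcription of genes that can lie far away, sites bound by the insulator protein CTCF, and gene starts that an annotation does not list. Blood stem cells are known to rely on a set of transcription factors, among them GATA2, RUNX1, TAL1, LMO2, ERG, FLI1, PU.1 and MEIS1, whose genes are themselves controlled by distal enhancers. An enhancer need not act on the nearest gene. The nearest gene start is therefore used below as a label of position only.

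Some members overlapped the window of a gene start that the count table did not list. RefSeq windows running from 250 bases before to 50 bases after a start were available on every chromosome but 18, and 613 of 12955 members there overlapped one, or 4.73% (exact binomial interval 4.37 to 5.11%). The share was 1.32% in distal regions of 1 list, 1.96% of 2 lists and 2.35% of 3 lists. Median widths were 384, 546 and 633 bp in these classes and 770 bp in members, and a wider region meets a window more readily. Of the 613 members, 284 overlapped a window of a gene that the table lists elsewhere, that is, of an alternative start. The other 329 overlapped windows of other genes only, 290 of them lncRNA genes and 39 protein coding. An overlap can cover part of a window only, so the start itself need not lie in the member. The 284 belonged to 269 genes, and among 249 of these that were tested in RNA, 13 were called between fetal and adult HSC, or 5.22%, where 4.95% of all tested genes were called. Between fetal and adult LMPP 45 were called (18.1% against 15.4%), between LMPP and HSC of adult marrow 49 (19.7% against 17.1%) and of fetal liver 44 (17.7% against 18.1%). So the distal class is not free of promoters, as the following windows show. They were chosen after their values were seen, the first 4 because the genes act in blood cells (Runx1 encodes a master regulator of blood formation, Cbfa2t3 the corepressor ETO2, Elf4 an ETS factor and Srgn the granule proteoglycan serglycin) and the last 2 because their members ranked near the top of every list. The sequences are RefSeq's on build GRCm38.p6 and read 5′ to 3′ on the gene's strand, with words of transcription factors on either strand in capitals. The words of the ETS family were AGGAAGT and its variant CGGAAGT. The word of RUNX factors was TGTGGTT, that of the zinc-finger factors of the GATA family was spelled AGATAA, and that of the trimer NF-Y was the box CCAAT. The word of NRF1 was GCGCNTGCG, and those of CTCF were CNAGGGGGC, CNAGATGGC, CNAGGTGGC and CNAGAGGGC.
Runx1, chr16:92697280-92697579, minus strand: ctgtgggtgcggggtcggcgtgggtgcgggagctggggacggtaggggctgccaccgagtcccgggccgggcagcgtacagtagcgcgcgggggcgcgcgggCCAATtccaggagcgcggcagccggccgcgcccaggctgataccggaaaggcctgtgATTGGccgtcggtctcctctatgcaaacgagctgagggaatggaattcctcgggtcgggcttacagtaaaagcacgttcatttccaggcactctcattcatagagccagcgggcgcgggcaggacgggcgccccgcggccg
Cbfa2t3, chr8:122678126-122678425, minus strand: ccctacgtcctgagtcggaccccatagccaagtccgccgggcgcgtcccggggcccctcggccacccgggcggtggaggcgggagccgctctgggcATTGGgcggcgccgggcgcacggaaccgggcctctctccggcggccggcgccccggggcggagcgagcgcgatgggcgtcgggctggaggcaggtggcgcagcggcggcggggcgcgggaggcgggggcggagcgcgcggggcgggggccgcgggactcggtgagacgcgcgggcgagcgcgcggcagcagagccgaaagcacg
Elf4, chrX:48454270-48454569, minus strand: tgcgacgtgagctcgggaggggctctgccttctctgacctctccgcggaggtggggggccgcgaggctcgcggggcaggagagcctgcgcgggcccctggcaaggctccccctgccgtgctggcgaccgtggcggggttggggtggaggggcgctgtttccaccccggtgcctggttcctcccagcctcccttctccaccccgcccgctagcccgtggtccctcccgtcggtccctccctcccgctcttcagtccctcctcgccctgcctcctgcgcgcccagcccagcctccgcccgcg
Srgn, chr10:62507708-62508007, minus strand: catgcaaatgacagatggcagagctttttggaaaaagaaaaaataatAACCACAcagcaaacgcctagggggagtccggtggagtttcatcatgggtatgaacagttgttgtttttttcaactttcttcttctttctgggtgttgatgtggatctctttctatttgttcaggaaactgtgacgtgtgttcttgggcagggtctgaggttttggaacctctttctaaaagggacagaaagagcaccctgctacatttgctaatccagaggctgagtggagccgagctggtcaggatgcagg
Fmn1, chr2:113327486-113327785, plus strand: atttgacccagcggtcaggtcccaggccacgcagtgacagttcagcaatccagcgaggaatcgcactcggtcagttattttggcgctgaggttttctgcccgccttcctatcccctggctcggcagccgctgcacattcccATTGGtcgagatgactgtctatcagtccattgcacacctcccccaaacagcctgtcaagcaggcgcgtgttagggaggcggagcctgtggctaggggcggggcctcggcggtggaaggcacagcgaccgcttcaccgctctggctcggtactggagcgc
Nfyc, chr4:120815664-120815963, minus strand: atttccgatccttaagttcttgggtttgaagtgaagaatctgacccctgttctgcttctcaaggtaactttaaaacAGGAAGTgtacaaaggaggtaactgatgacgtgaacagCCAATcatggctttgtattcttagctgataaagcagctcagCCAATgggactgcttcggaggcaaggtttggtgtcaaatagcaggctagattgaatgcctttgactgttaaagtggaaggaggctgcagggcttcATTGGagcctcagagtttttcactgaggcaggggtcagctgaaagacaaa

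The Runx1 window is at an internal start, known as the proximal promoter, 127.0 kb from the start that the table lists, and holds 35 CpG, 69.0% GC and 2 NF-Y words. Its member ranked at percentile 53.6 of the fetal HSC list, 58.4 of the adult HSC list, 13.4 of the fetal LMPP list and 16.4 of the adult LMPP list by the authors' signal value. The Cbfa2t3 window was the richest in CpG of the 6, with 53, and its member was placed lower in both LMPP lists (percentiles 2.9 and 13.0) than in both HSC lists (40.6 and 44.2). The Elf4 window held 29 CpG and none of the words, and its member ranked at 67.0, 73.9, 60.6 and 72 in fetal HSC, adult HSC, fetal LMPP and adult LMPP. The Srgn window held 1 RUNX word and only 4 CpG, and its member stayed low in each list (21.7, 22.8, 6.1 and 22.6 in the same order). The Fmn1 window, of a gene for a formin that nucleates actin, lay in a member between percentile 98.9 and 99.5 in all lists. The Nfyc window, of a subunit of the factor NF-Y, held 3 NF-Y words and 1 ETS word and lay in a member between 97.3 and 99.2.

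Over all 613 windows, 1 per member, the median GC content was 55.0% with 10 CpG. Windows in regions at listed gene starts had more (62.3% and 23 CpG in 8027 windows). Windows that lay in no peak of any list, taken 1 per gene, had less (47.3% and 3 CpG in 15217 windows). The NRF1 word, typical of CpG-rich promoters, was in 4.57% of the windows in members, 15.2% of those at listed starts, 0.966% of those without a peak and 6.3% of all 32817 windows. The CTCF words were in 10.1% (exact binomial interval 7.84 to 12.8%), 12.5%, 4.6% and 7.81% of the same sets. The RUNX word was in 6.2% of the windows in members (4.42 to 8.41%), 3.3% of those at listed starts, 6.6% of those without a peak and 5.27% of all windows. The ETS words were in 15.7%, 21.6%, 11.3% and 15.1%. The longer word GAGGAAGT, the type preferred by PU.1, contains the first ETS word and was in 5.38%, 3.23%, 3.21% and 3.2%. Sorted by the mean signal percentile of the member, the RUNX word was in 1.96% of the 204 lowest windows, 6.37% of the next 204 and 10.2% of the 205 highest (6.45% to 15.2% for the last by the exact interval). RUNX was 1 of 14 kinds of word compared in this way. In the same order the NF-Y word was in 27.5%, 32.4% and 38.5%, the word of AP-1 in 6.37%, 5.88% and 10.7% and the CTCF words in 12.3%, 11.3% and 6.83%, while the median GC content was 57%, 56.5% and 53%. A match is a description of letters and not of binding, and the windows stand for 613 members only, since no genome sequence was used for the rest.

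By the authors' signal value, members stood high in every list although many peaks of each list lay elsewhere. A strong peak is called in all 4 lists more readily, and the strongest peak of a region was taken. High percentiles are thus tied to the rule that chose the members and are not a separate result. The median member was at percentile 67.1 of the 48286 distinct peaks of fetal HSC, 68.7 of the 53068 of adult HSC, 58.5 of the 37156 of fetal LMPP and 69.2 of the 50579 of adult LMPP. Distal regions of a single list had medians between 18 and 23.6, those of 3 lists between 36.6 and 46.6, and regions at gene starts in all 4 lists between 69.5 and 76.4. Members took up 28.3% of the peaks of fetal HSC, 26.0% of adult HSC, 36.9% of fetal LMPP and 27.1% of adult LMPP. Signal values describe peaks within a list, the depth behind them is unknown, and 1 list per group leaves no replicate against which a region could be compared.

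**Figure D1:**
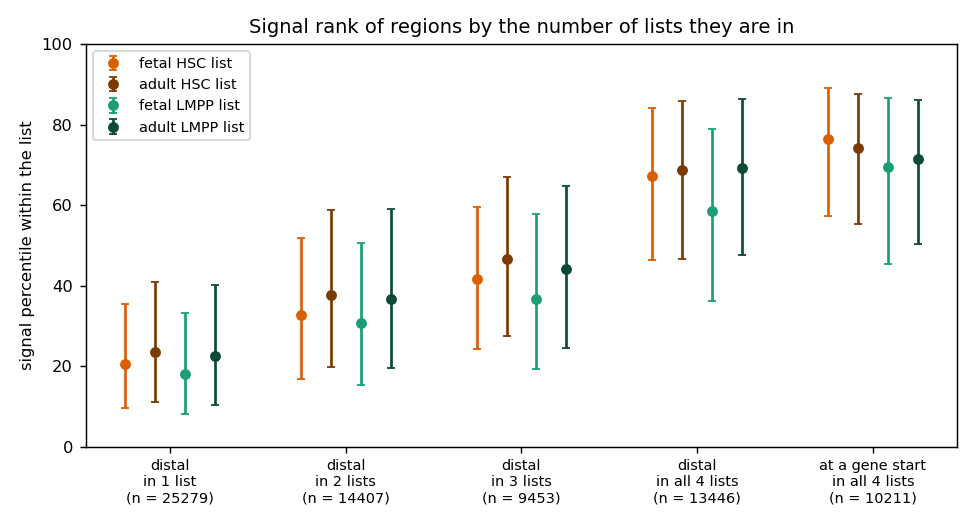
Signal percentile within each list (vertical axis) for distal regions of 1, 2, 3 and 4 lists and for gene-start regions of 4 lists; points are medians, bars run from the lower to the upper quartile over regions, and n is the number of regions. In all 4 lists the median of the distal regions in 4 lists, 58.5 to 69.2, lies above that of the distal regions in fewer lists. The rule of a peak in 4 lists itself favours strong peaks.

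Members were 160 to 3717 bp wide with a median of 770 bp, and 12672 of them consisted of exactly 1 peak from each list. Distal regions of 1 list had a median width of 384 bp. The share of distal regions open in all 4 groups rose with width from 2.03% of regions up to 300 bp to 62.8% of those over 1200 bp, where merging more peaks itself widens a region. Distance mattered less: the share was 23.6% between 1 and 2 kb from a start, stayed between 19.8% and 23.5% from 2 to 200 kb, and was 15.9% beyond 200 kb. The median member lay 30015 bp from the nearest start, the farthest 1501341 bp, and 46.1% overlapped the span of a listed gene against 46.8 to 47.7% of the other distal classes. At the limit of the rule, the 62 members from 1001 to 1100 bp had a median width of 684 bp and a median mean percentile of 46.2, and the 41 regions left out from 901 to 1000 bp had 756 bp and 46.9. The members nearest the limit lay at Tm6sf1 (1001 bp) and at Hspb7 and E2f3 (1002 bp each), and the regions just outside it at Smad3 and Cenpc1 (997 bp each).

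**Figure D2:**
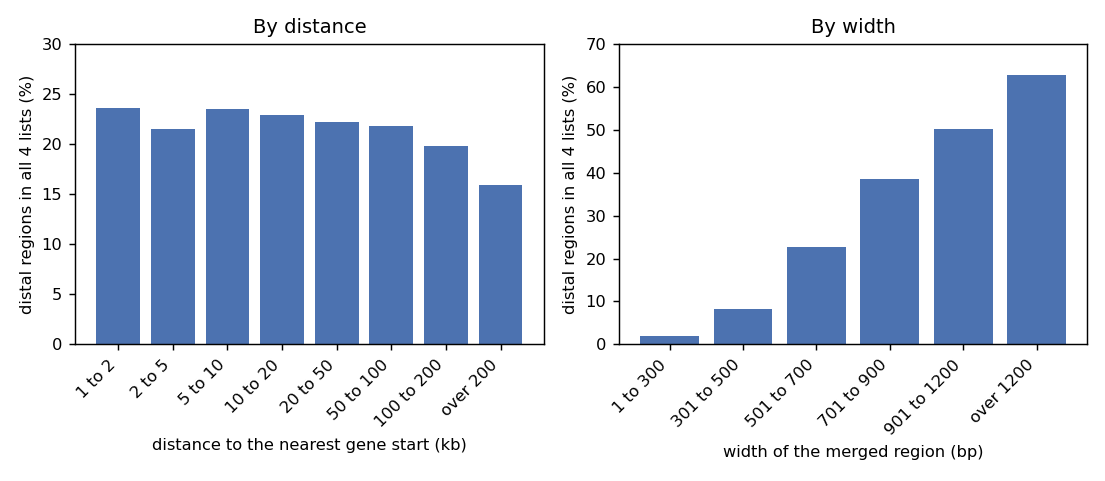
Percentage of distal regions with a peak in all 4 lists (vertical axes) by distance to the nearest gene start in kb (left) and by width of the merged region in bp (right). The share falls from 23.6% to 15.9% over the distance bands and climbs from 2.03% to 62.8% over the width bands.

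Most members stood alone: 9742, or 72.5%, had no other member within 12.5 kb. There were 1340 pairs and 307 stretches of 3 or more, which held 1024 members. The densest stretch, 19 members on chr9:3001999-3033032 beside Mir101c, was also the weakest, with median percentiles of 0.4 to 0.7 and a median width of 205 bp. No list of regions of unreliable mapping was used, and whether reads map uniquely in this stretch was not tested. Mir101c was detected in none of the RNA libraries. Stretches of 7 members lay at Pisd-ps1 on chromosome 11 (median mean percentile 10.6), between Mrps28 and Tpd52 on chromosome 3 (48.5) and at Pisd on chromosome 5 (42.9). A stretch of 5 nearest to Mmp25, Zfp13 and Zscan10 on chromosome 17 was stronger, between percentiles 78.2 and 92.2.

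The members of highest signal lay near genes of varied kind, few of them known from blood formation. The strongest was 246 bp wide, on chrX:143482934-143483179, 88.7 kb from Chrdl1, a gene for a BMP antagonist, with the authors' signal value at 63.7 in fetal HSC, 64.8 in adult HSC, 63.1 in fetal LMPP and 63.6 in adult LMPP. Unique mapping of reads at this narrow member was not tested. The next was 288 bp wide, on chr13:9011617-9011904, 15.6 kb from Gtpbp4, which encodes a GTPase of ribosome assembly. The remaining 8 of the top 10 were nearest to Gm2004, 1700044K03Rik, 1700080N15Rik, Rgs7, Cldn34d, Lilra5, Epha7 and Dach1, and 6 of the 10 genes were not tested in RNA because of low counts. Of the 207 members up to 300 bp wide, 3 reached a mean percentile of 99 or above (1.45%) and 36 fell under 10 (17.4%), against 0.781% and 0.922% of all members.

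Members also differed in how the 4 lists ranked them. Each member was ranked among the 13446 in each list, and across members the ranks of the lists had a Spearman correlation of 0.694 between fetal and adult HSC, 0.721 between fetal and adult LMPP, 0.634 between fetal HSC and fetal LMPP and 0.61 between adult HSC and adult LMPP. The lists of 1 cell type thus ranked the members more alike than the lists of 1 age; these values run across regions that share libraries and carry no test. The median gap between a member's highest and lowest rank was 31.4 points, 9.09% of members stayed within 10 points, and 2684 of them spanned 50 points or more. A gap of at least 20 points separated both HSC lists from both LMPP lists for 652 members in favour of HSC and 777 in favour of LMPP, and separated the ages for 359 members in favour of fetal and 406 in favour of adult cells.

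The clearest members of these sets show that presence in 4 lists can hide large differences in rank. A member far from any listed start, 609630 bp from that of Efnb2, which encodes the ligand ephrin-B2, had ranks of 98.1 and 97.5 in fetal and adult HSC and 17.4 and 10.2 in fetal and adult LMPP. Efnb2 RNA was 5.31 and 6.88 CPM in the fetal HSC libraries and 4.85, 4.69 and 0.698 in adult HSC, against 0.0888, 0 and 0.128 in fetal and 0.556, 0.308 and 0.0982 in adult LMPP. In fetal liver the HSC and LMPP libraries did not overlap, and Efnb2 fell by 6.32 ± 1.1 on the log2 scale (SE; adjusted p = 0.0044, edgeR quasi-likelihood test with Benjamini-Hochberg adjustment over all tested genes, here and below). A member 20572 bp from the start of Runx1t1, a corepressor of the ETO family, had HSC ranks of 89.0 and 94.7 and LMPP ranks of 15.3 and 12.3. Runx1t1 RNA was 8.16, 9.32 and 9.49 CPM in adult HSC and 0 in each adult LMPP library, at least 80-fold lower against a floor of 3 counts per library. In the opposite direction, a member 38633 bp from the start of Pdlim5, which encodes a cytoskeletal PDZ-LIM protein, had HSC ranks of 11.7 and 3.5 and LMPP ranks of 91.7 and 92.2, while Pdlim5 RNA was 28.6, 29.1 and 13.4 CPM in adult HSC and 13.3, 11.5 and 7.53 in adult LMPP. It fell by 1.14 ± 0.34 (adjusted p = 0.041), a call that was lost without any 1 of adult HSC 1 or 2 or the adult LMPP libraries (adjusted p between 0.067 and 0.14) and with the replicate number as a block (adjusted p = 0.051). Other members of higher HSC rank lay by genes whose RNA did not fall in LMPP. One 5034 bp from the start of Dhrs3 had HSC ranks of 92.0 and 97.5 and LMPP ranks of 22.4 and 23.4, while Dhrs3 RNA rose by 3.04 ± 0.21 in adult LMPP (adjusted p = 1.6e-05). At Egfl7 the RNA rose by 1.38 ± 0.22 (adjusted p = 0.0022), and for Gmds the difference of -0.46 ± 0.2 did not pass the test (adjusted p = 0.15). These genes were chosen after their values were seen.

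Over the sets, genes nearest to members that ranked higher in HSC were called lower in LMPP more often than higher: of 411 tested, 27 were higher and 65 lower in fetal LMPP, or 6.57% and 15.8%, where 8.21% and 9.85% of all tested genes were. In adult marrow 36 were higher and 58 lower, or 8.76% and 14.1%, against 7.76% and 9.33% of all genes. Genes nearest to members that ranked higher in LMPP did not mirror this, with 55 higher and 72 lower of 512 in fetal LMPP (10.7% and 14.1%) and 42 higher and 64 lower in adult LMPP (8.2% and 12.5%). Genes near members that ranked higher in adult cells were called lower in fetal HSC in 15 of 280 cases and higher in 5, or 5.36% and 1.79% against 2.89% and 2.07% of all genes, and in fetal LMPP 35 were lower and 20 higher (12.5% and 7.14% against 8.29% and 7.08%). Genes near members that ranked higher in fetal cells did not mirror this either. Of 217, 8 were lower and 7 higher in fetal HSC (3.69% and 3.23%), and 27 were lower and 18 higher in fetal LMPP (12.4% and 8.29%). Among all tested genes nearest to a member, 3.91% were lower and 2.69% higher in fetal HSC, and 9.82% and 6.8% in fetal LMPP. The ranks come from ATAC and the calls from RNA libraries, and the counts were not tested further.

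The genes of blood stem cell regulators were often flanked by members. Of 26 listed regulators, 17 were the nearest gene of at least 1 member, or 65.4%, where 30.1% of the 25124 genes in the table were, and they held 47 members of 230 distal regions (20.4%, close to the 21.5% of all distal regions). Within 150 kb of the start, 24 of the 26 had a member. The list was chosen with earlier results of these data known, and genes with long spans and long flanks have room for more regions.

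**Figure D3:**
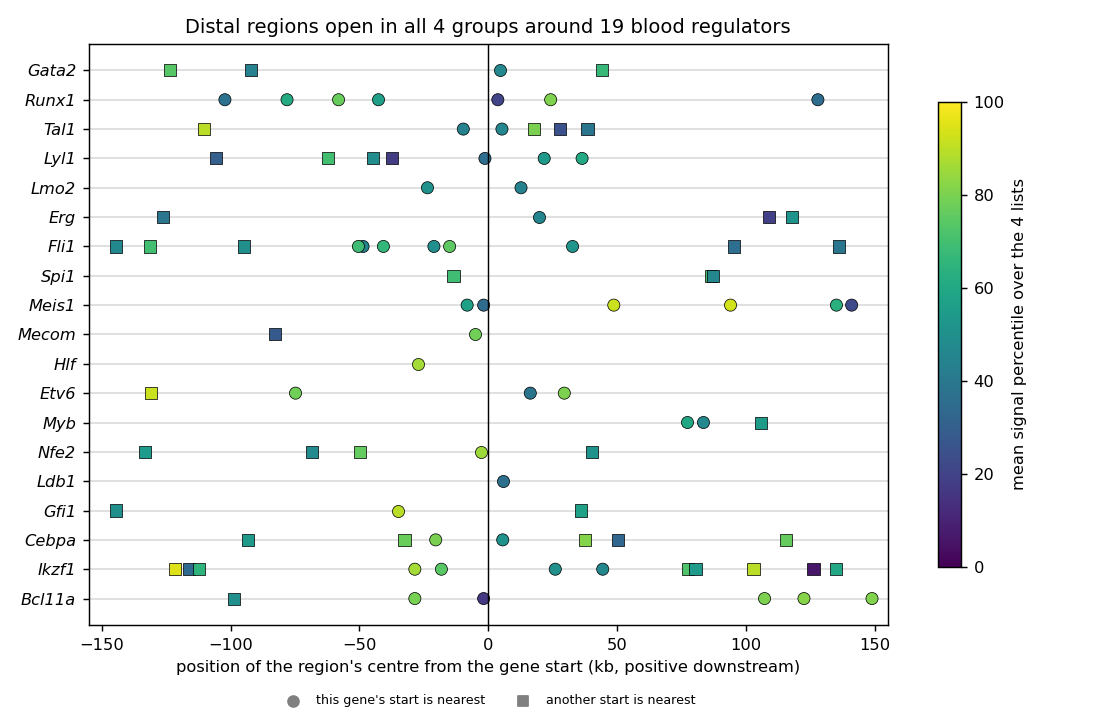
Positions of members around the starts of 19 regulator genes, in kb from the start along the gene's strand; each symbol is 1 member within 150 kb, a circle where that gene's start is the nearest and a square where another start is nearer, coloured by the mean signal percentile over the 4 lists. Meis1, Fli1 and Runx1 carry rows of members, and Ldb1 and Hlf carry 1 each.

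Runx1 was nearest to 8 members, 7 of them within 150 kb. The member 24.2 kb inside the gene, on chr16:92801475-92802235, lay where an intronic stem cell enhancer is known and ranked at percentiles 90.3 in fetal HSC, 88.7 in adult HSC, 67.2 in fetal LMPP and 76.7 in adult LMPP. The member 58.1 kb upstream ranked highest in LMPP, with 93.5 in adult and 93.4 in fetal LMPP against 82.2 in adult and 38.4 in fetal HSC. Near the listed start, 3.7 kb inside the gene, a member ranked at 58.3 in adult HSC, 18.5 in fetal HSC and at 1.2 and 2.3 in fetal and adult LMPP. Runx1 RNA itself was 81.9 ± 4.41 CPM in fetal HSC (n = 2), 84.5 ± 41.7 in adult HSC, 51.1 ± 12.6 in fetal LMPP and 60.3 ± 19.5 in adult LMPP (SD, n = 3 each), and passed the test in none of the 4 comparisons (adjusted p between 0.3 and 0.98).

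Gata2, a zinc-finger factor needed for stem cell upkeep, had 1 member of its own, 4.7 kb inside the gene on chr6:88202941-88203755, where an enhancer used in stem cells is known. Its percentiles were 61.0 in fetal HSC, 31.5 in adult HSC, 56.5 in fetal LMPP and 39.6 in adult LMPP. Gata2 RNA was 309 and 299 CPM in fetal HSC and 579, 446 and 290 in adult HSC, and 37.6, 26.4 and 44.9 in fetal and 49.4, 54.0 and 33.1 in adult LMPP. All LMPP libraries lay below all HSC libraries, and the RNA fell by 3.06 ± 0.32 on the log2 scale in fetal liver (adjusted p = 0.0004) and by 3.27 ± 0.3 in adult marrow (adjusted p = 8.1e-05). By the rule the region had a peak in both LMPP lists, while the RNA of its nearest gene was lower there than in HSC.

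Tal1, a basic helix-loop-helix factor of stem and erythroid cells, showed the limits of the nearest-gene label. Members lay 9.7 kb upstream and 5.3, 17.9, 27.8 and 38.5 kb downstream of its start, and the last 3 were nearer to the start of Pdzk1ip1, the gene next to it. Stem cell and erythroid enhancers of Tal1 are known in that interval. The member at 17.9 kb, on chr4:115075312-115076179, ranked between 70.4 and 87.4 in the 4 lists, and the one at 38.5 kb at 55.0 and 61.9 in HSC but at 14.2 and 22.5 in LMPP. In LMPP, Tal1 RNA fell by 1.76 ± 0.31 in adult marrow on the log2 scale (adjusted p = 0.0035) and Pdzk1ip1 RNA fell by 4.75 ± 0.71 (adjusted p = 0.0013).

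Other members fell at positions of known blood enhancers. Spi1, which encodes PU.1, was nearest to none, but a member 13.5 kb upstream, on chr2:91082771-91083627, lay at its upstream regulatory element, within reach of the start of Slc39a13, with percentiles of 76.4, 60.3, 67.2 and 73.3 in fetal HSC, adult HSC, fetal LMPP and adult LMPP. Cebpa, the factor that drives granulocyte fate, had a member 37.4 kb downstream where its myeloid enhancer is known, nearest to Slc7a10, with percentiles of 87.8, 91.9, 62.0 and 84.3. This region was open in HSC, in which Cebpa RNA was 0.0393 and 0.195 CPM in fetal and 0.634, 0.749 and 0.183 in adult libraries. In LMPP Cebpa RNA was 3.09 to 10.3 CPM in fetal and 4.58 to 22.9 in adult libraries, and the difference in adult marrow was 4.84 ± 0.82 on the log2 scale (adjusted p = 0.0029). Myc, the growth regulator, had no member within 150 kb of its start, but 4 members lay 1617, 1626, 1663 and 1673 kb downstream, in the interval of its known blood enhancer cluster, where Gm20740 and Gsdmc are the nearest genes. The one at 1663 kb was the strongest of these, between percentiles 89.8 and 95.8 in the 4 lists.

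The members nearest to the stem regulators had a median mean percentile of 55.9, below the 63.8 of all members. Those of Ldb1 (mean percentile 36.7), Lmo2 (50.3 and 43.9) and Erg (45.6 at 19.8 kb) were in the weaker part, and the following are examples of stronger ones. Meis1, a homeobox partner of HOX factors, was nearest to 6 members, and those 48.7 and 94.0 kb inside the gene ranked between 87.1 and 96.4 in every list. Meis1 RNA fell by 1.56 ± 0.25 on the log2 scale in adult LMPP and fell by 1.81 ± 0.27 in fetal LMPP (adjusted p = 0.0019 and 0.0021). Members upstream of Hlf (27.1 kb, percentiles 82.6 to 89.1), Gfi1 (35.1 kb, 85.0 to 95.3) and Nfe2 (2.9 kb, 80.9 to 90.2) were also high in all lists. Hlf encodes a PAR bZIP factor of stem cells, Gfi1 a repressor of the zinc-finger class and Nfe2 a factor of megakaryocytes. Fli1, an ETS factor, was nearest to 6 members and Lyl1, the relative of Tal1, to 3. Kit, the stem cell factor receptor, was nearest to a single member 156.0 kb downstream with percentiles of 86.3 to 94.7.

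Some genes whose RNA differed widely between fetal and adult cells were nearest to a member, a region with a peak in every group by the rule that chose it. Of 11 genes of the fetal programme, 5 were nearest to a member (Dlk1, Igf2bp3, Lin28b, Id1 and Id3). All 5 were called higher in fetal than in adult HSC and in fetal than in adult LMPP, where 2.07% and 7.08% of all tested genes were. The list names fetal genes and was chosen with earlier results of these data known. These calls are therefore no result about genes with a member, and the list's genes without a member were not compared. The 5 are 45.5% of the list, against 30.1% of all genes in the table, while 6 of the list's 40 distal regions (15%) were members, against 21.5%. Igf2bp3, which encodes an RNA-binding protein of fetal tissue, had a member 21.6 kb upstream that was 308 bp wide and ranked at percentiles 100, 97.9, 100 and 98.6 in fetal HSC, adult HSC, fetal LMPP and adult LMPP; unique mapping was not tested there either. Its RNA was 81.2 and 79.5 CPM in fetal HSC against 1.79, 1.42 and 3.2 in adult HSC, and 214, 200 and 197 in fetal LMPP against 3.61, 1.86 and 2.72 in adult LMPP. The fetal and adult libraries were far apart, with differences of 5.21 ± 0.35 in HSC (adjusted p = 3.6e-05) and 6.23 ± 0.36 in LMPP (adjusted p = 7.8e-06) on the log2 scale. The second Igf2bp3 member, 3.0 kb upstream, was placed higher in the fetal lists (77.6 and 70.6) than in the adult lists (48.0 and 14.6).

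Lin28b, a fetal regulator of let-7 microRNAs, had a member 16.1 kb upstream with percentiles of 52.9, 16.8, 51.4 and 36.2 in the same order. Its RNA was 29.5 and 21.0 CPM in fetal HSC and 0.792, 0.195 and 0.149 in adult HSC. In LMPP it was 27.8, 47.6 and 35.2 CPM in fetal libraries and 0 in all 3 adult libraries, at least 330-fold higher in fetal cells against the floor of 3 counts per library. Id3, an inhibitor of E proteins, had a member 4.1 kb downstream whose percentiles, 32.1, 31.8, 35.1 and 34.0, were nearly level over the lists. Its RNA was 39.3 and 44.8 CPM in fetal HSC and 48.3 to 75.1 in fetal LMPP, against 0.301 to 0.689 in adult HSC and 0.434 to 1.09 in adult LMPP. Dlk1, a Notch-like membrane protein, had a member 59.5 kb upstream with percentiles of 45 to 74.8, and its RNA was 95.3 and 64.7 CPM in fetal HSC and 3.84, 3.56 and 3.88 in adult HSC. Erythroblast markers, summed over 4 genes, were 597 to 698 CPM in fetal and 15.8 to 60.8 in adult HSC, and their part in these differences was not tested.

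**Figure D4:**
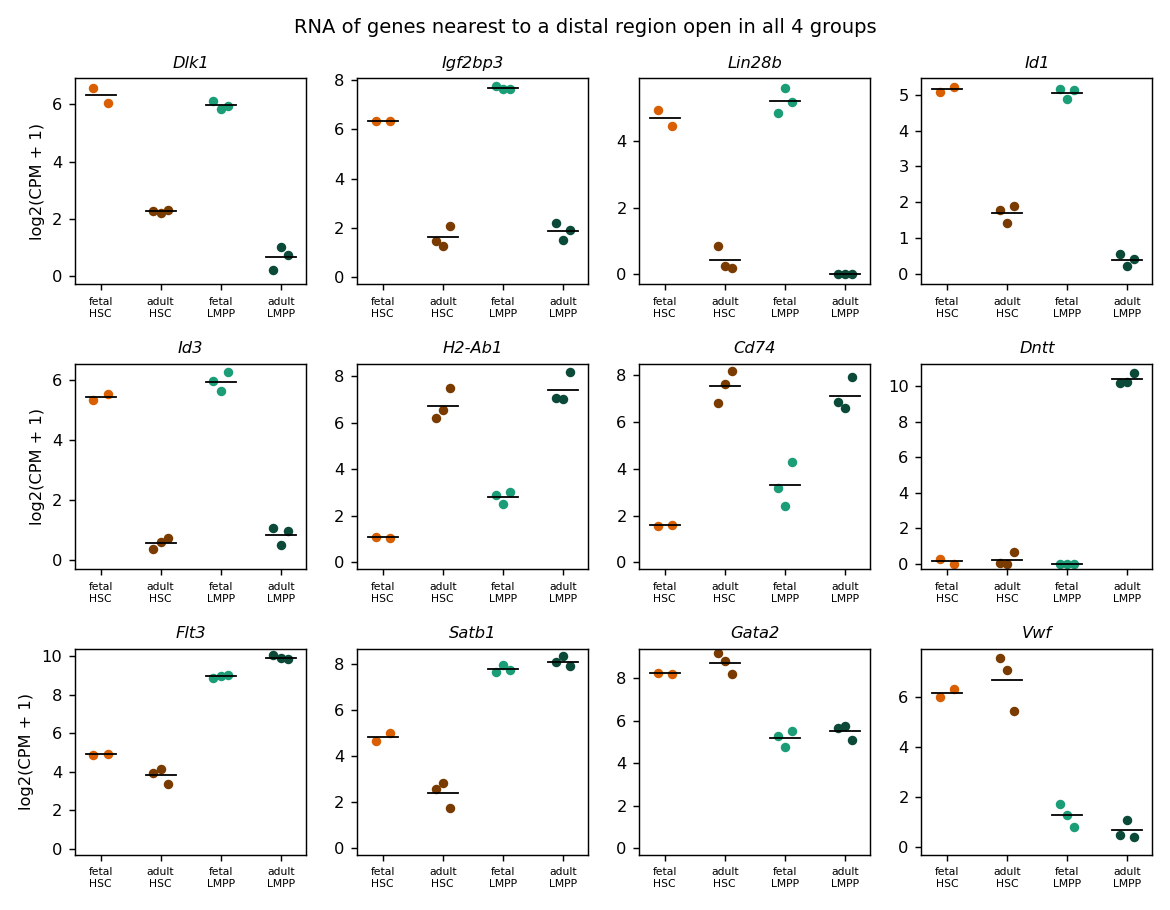
RNA of 12 genes nearest to a member, as log2 of CPM plus 1 (vertical axes) in the 11 libraries by group; points are libraries and lines are group means. Dlk1, Igf2bp3, Lin28b, Id1 and Id3 are high in fetal libraries, H2-Ab1 and Cd74 in adult libraries, Dntt in adult LMPP, Flt3 and Satb1 in LMPP and Gata2 and Vwf in HSC.

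Genes of antigen presentation went the other way. Of 14, 4 were nearest to a member (H2-Aa, H2-Ab1, Cd74 and H2-D1), and all 4 were called lower in fetal HSC and in fetal LMPP, where 2.89% and 8.29% of all tested genes were. The 4 are 28.6% of the list, near the 30.1% of all genes. This list too was chosen with earlier results of these data known, so the calls are no result about genes with a member. H2-Ab1, a class II chain, had 1.16 and 1.06 CPM in fetal HSC and 71.8, 91.8 and 177 in adult HSC, and fell by 6.66 ± 0.61 on the log2 scale (adjusted p = 0.0002). The member 5.9 kb upstream of H2-Aa, the partner chain, had percentiles of 57.7 in fetal HSC, 43.8 in adult HSC, 49.7 in fetal LMPP and 76.5 in adult LMPP. Class II genes share sequence and are neighbours, so their single values are not independent. Mast cell markers, summed over 3 genes, were 1.71 to 3.07 CPM in fetal and 5.56 to 127 in adult HSC, and 4.27 to 9.65 in fetal and 19.5 to 71.1 in adult LMPP; their part in these differences was not tested.

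Lymphoid genes, also a list chosen with earlier results of these data known, gave the widest contrast. Dntt, which encodes the terminal transferase of early lymphocytes, had a member 2.0 kb inside the gene with percentiles of 50.3 in fetal HSC, 83.4 in adult HSC, 49.2 in fetal LMPP and 59.6 in adult LMPP. Its RNA was 1170, 1180 and 1690 CPM in adult LMPP and 0 in all 3 fetal LMPP libraries, at least 13880-fold higher in adult cells. In HSC it was 0.236 and 0 in fetal and 0.0317, 0 and 0.631 in adult libraries. A peak was thus listed at this place in 3 groups with hardly any Dntt RNA. T and NK cell markers, summed over 3 genes, were 257 to 363 CPM in adult and 37.7 to 52.2 in fetal LMPP, and 53.7 to 119 in adult and 6.55 to 8.22 in fetal HSC; Cd3e was at 0 in all libraries, and the part of such cells in the lymphoid differences was not tested. Of 20 lymphoid genes, 10 were nearest to a member, and 5 of these were called higher and 1 lower in LMPP than in HSC of adult marrow, where 7.76% and 9.33% of all tested genes were. Satb1, a chromatin organizer of lymphoid cells, had a member 18.2 kb inside the gene that was placed low in HSC (percentile 9.5 in the fetal list) and higher in fetal and adult LMPP (55.1 and 66.5). A neighbouring member 19.4 kb inside the gene was instead lower in LMPP, at 1.8 and 1.5, than in HSC, at 9.5 and 11.7. Satb1 RNA was 4.42 ± 1.95 CPM in adult HSC and 273 ± 42.4 in adult LMPP (SD, n = 3 each), a difference of 5.96 ± 0.36 (adjusted p = 7.6e-06). Flt3, whose product was part of the sort, had members 34.0 and 37.3 kb inside the gene.

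Megakaryocyte genes stood on the HSC side, in a list chosen with earlier results of these data known. The calls below are therefore no result about genes with a member. Of 18 megakaryocyte and erythroid genes, 6 were nearest to a member, and these 6, among them Vwf, Itga2b, Gp1bb, Nfe2 and Tal1, were all called lower in LMPP than in HSC of adult marrow, where 9.33% of all tested genes were, Nfe2 not without adult LMPP 1 (adjusted p = 0.058). Vwf, the clotting factor stored by megakaryocytes, had a member 20.2 kb inside the gene that ranked between 86.4 and 96.2 in all lists, LMPP included. Vwf RNA was 191, 137 and 42.3 CPM in adult HSC and 0.404, 1.15 and 0.327 in adult LMPP, and fell by 7.55 ± 0.75 on the log2 scale (adjusted p = 0.00013).

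Immediate early genes had a member in 10 of 14 cases, at 71.4% the highest share of the 11 lists. Of their 102 distal regions, 31 (30.4%) were members. Among all genes in the table, 30.1% were nearest to a member. The share of distal regions was 32.5% for housekeeping genes, 20.4% for the stem regulators and 21.5% for all genes in the table. Surface and cytokine receptors had a member in 11 of 20, granulocyte and monocyte genes in 6 of 15, chromatin architecture genes in 5 of 12, housekeeping genes in 5 of 15 and genes of non-blood tissues in 4 of 20. The 4 of the last list included Neurod1, Nkx2-1 and Snap25, and none of the 4 passed the filter on low counts. Neurod1, a factor of neurons and endocrine cells, had 3 members, with mean percentiles of 73.0 to 78.1.

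Over all genes, 7571 were nearest to at least 1 member, of which 4938 were tested in RNA, and 32.4% of members lay nearest to a gene that was not tested. Of the 4938, 326 (6.6%) were called between fetal and adult HSC, where 4.95% of all 14720 tested genes were. Between fetal and adult LMPP 821 (16.6%) were called, against 15.4% of all genes. Between LMPP and HSC, 1004 (20.3%) were called in adult marrow and 990 in fetal liver, against 17.1% and 18.1% of all genes. With 5 or more members, the shares among 279 genes were 8.24%, 19%, 27.2% and 27.2%. The difference by age differed between HSC and LMPP for 62 of the 4938 (1.26%), where 0.931% of all tested genes passed. Without adult HSC 3, fetal LMPP 1 and adult LMPP 3, which stood apart from their groups on principal component 3 (13.8% of the variance), 961, 1570, 1689 and 2001 genes were called (19.8%, 32.3%, 34.7% and 41.2%), against 16.2%, 30.5%, 29.8% and 38.4% of all genes. Library totals ran from 19.8 to 64.78 M counts.

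**Figure D5:**
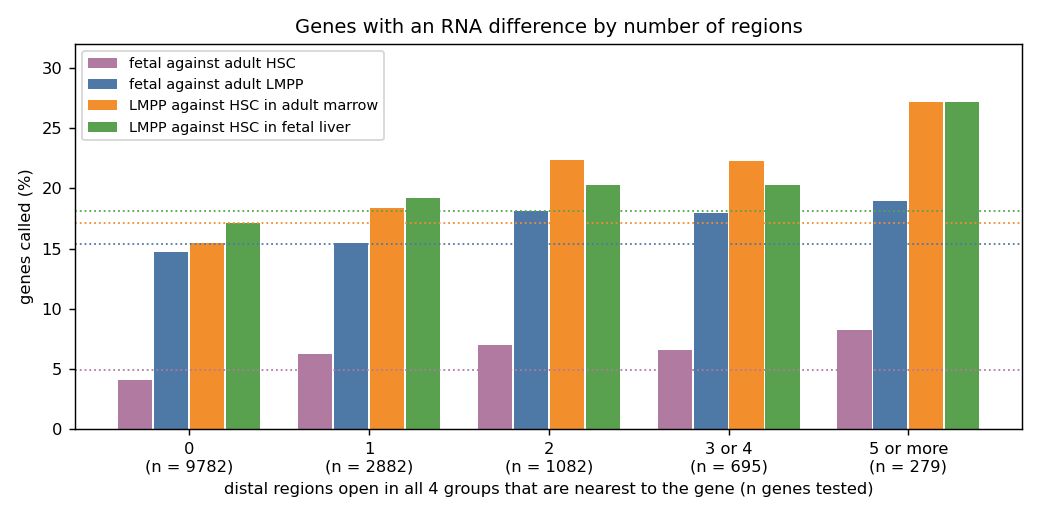
Percentage of tested genes called in each of the 4 comparisons (bars, vertical axis) by the number of members nearest to the gene (horizontal axis, n genes tested); dotted lines are the percentages over all 14720 tested genes. From 0 to 5 or more members, the bars rise from 4.12% to 8.24% for HSC by age and from 15.5% to 27.2% for LMPP against HSC in adult marrow.

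The genes with the most members were mixed in kind. After Mir101c, whose 19 are the weak stretch on chromosome 9 described above, came Adgrl2 with 17, Nrxn3 with 13, Gm17746 with 12 and Klhl25, Pde4b and Tns3 with 11 each, and 12 genes tied at 10. Adgrl2, an adhesion receptor, had members 32575 to 733381 bp from its start, and its RNA was 17.8 ± 1.73 CPM in fetal HSC (n = 2), 34.6 ± 24.2 in adult HSC, 4.09 ± 0.982 in fetal LMPP and 8.49 ± 4.68 in adult LMPP (SD, n = 3 each), with no call in the 4 comparisons (adjusted p between 0.061 and 0.55). Nrxn3, a gene of synapses, was listed at 0 in all groups but fetal HSC (0.778 ± 0.433 CPM, n = 2). Pde4b, a phosphodiesterase, was between 86.4 and 131 CPM on average in the 4 groups. Dhrs3, an enzyme of retinoid metabolism with 10 members, rose in LMPP, from 9.27, 6.79 and 8.71 CPM in adult HSC to 66.5, 62.1 and 74.6 in adult LMPP, a difference of 3.04 ± 0.21 (adjusted p = 1.6e-05).

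Among called genes with at least 3 members, the 4 largest rises and falls of each comparison without overlap between libraries were taken. Between fetal and adult HSC the rises were Rasgrp3, Tspan2, Ikzf2 and Fam181b and the falls Rgs1, Esr1, Ndrg1 and Lair1. Ikzf2, a Helios-type zinc-finger factor with 7 members, was 48.5 and 59 CPM in fetal HSC and 5.18, 8.84 and 5.61 in adult HSC, a difference of 3.04 ± 0.35 (adjusted p = 0.00073). Rgs1, a regulator of G-protein signalling with 5 members, was 1.65 and 1.22 against 63.8, 96.6 and 99.7, and fell by 5.92 ± 0.44 (adjusted p = 6.2e-05). Lair1, an inhibitory collagen receptor, and Ndrg1 also fell in fetal LMPP; Lair1 fell by 5.06 ± 0.41 and Ndrg1 fell by 4.59 ± 0.44 (adjusted p = 4.8e-05 and 0.00014). In LMPP, Chd7, Jam3, Grb10 and Pcdh7 were the rises in fetal cells, and Esr1 and Alcam stood beside Lair1 and Ndrg1 among the falls. Leaving out 1 library ended the calls of Rasgrp3 (adjusted p = 0.14 without fetal HSC 2) and Esr1 in HSC (0.072 without fetal HSC 1 and 0.11 without fetal HSC 2). It also ended those of Grb10 in LMPP (adjusted p of 0.053, 0.067 and 0.077 without fetal LMPP 1, fetal LMPP 3 and adult LMPP 1) and Pcdh7 (0.071, 0.076 and 0.099 without fetal LMPP 2, fetal LMPP 3 and adult LMPP 1).

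Between LMPP and HSC, Cmah and Ptger2 were among the rises at both ages. Ptger2, a prostaglandin receptor with 5 members, was 0.0787 and 0.293 CPM in fetal HSC and 37.3, 34.5 and 28.2 in fetal LMPP, and 0.159, 0.391 and 0.332 in adult HSC and 41.7, 39.4 and 34.2 in adult LMPP. The differences were 7.35 ± 0.52 in fetal liver (adjusted p = 6e-05) and 7.0 ± 0.42 in adult marrow (adjusted p = 7.6e-06). The other rises were Emp1 and Tspan2 in adult marrow and Ly86 and Serpinb1a in fetal liver. The falls were Pde10a, Grb10, Rab27b and Rarb in adult marrow, and Dach1, Pdzk1ip1, Slit2 and Slc16a9 in fetal liver. Dach1, a transcriptional cofactor with 5 members, was 19.6 and 19.7 CPM in fetal HSC and 0.0178, 0 and 0.212 in fetal LMPP, and 9.95, 9.58 and 3.8 in adult LMPP. One of its members, 435.8 kb upstream, was among the 10 of highest signal. In fetal liver, the call of Ly86 was lost without fetal HSC 1 or 2 (adjusted p = 0.083 and 0.16), that of Cmah without fetal HSC 2 (0.091) and that of Slit2 without any 1 library (between 0.07 and 0.17).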

How the data were processed

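ATAC-seq peaks and RNA-seq counts of sorted mouse HSC and LMPP were used as deposited. The submitters' processing notes name MACS2, SAMtools 1.9, Bowtie2 2.3.5 and Picard, then STAR with RSEM, HOMER, Trim Galore and DESeq2, and the build mm10, without the step that each served. The peak lists that the authors deposited hold a signal value, a score and a −log10 p and q per peak. Only the signal value and the score were used. The list names state an irreproducible discovery rate of 0.1, and the descriptions of the 2 ATAC samples of a group name its list. Whether that rate was judged between the 2 replicates or on pooled reads is not spelled out. Lines repeating a position were reduced to distinct peaks, the strongest kept. The RNA table holds expected counts per gene that the authors deposited, of which 22.5% were not whole; they were rounded.

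Peaks of the 4 lists sharing at least 1 bp were merged, and regions with all 4 lists more than 1000 bp from every gene start of the count table were kept. Percentiles are of the signal value among all distinct peaks of a list, taking the strongest peak of a region; ranks are among the members only. RNA was tested with edgeR 4.0.16 (R 4.3.3; TMM scaling, quasi-likelihood, 11 libraries in 4 groups, 14720 genes after the filter on low counts), with Benjamini-Hochberg adjusted p under 0.05 as a call; DESeq2 1.42.0 was an alternative. CPM use TMM-scaled totals and are compared within a gene only. A group at 0 gives a bound against 3 counts per library. Intervals and floors cover counting error only. The RNA fit was tested on simulated counts for fetal against adult LMPP only, and merging and distances on a small hand-made case. Comparisons with fetal HSC and the interaction term were not simulated. By replicate number, deviations from the group means correlated at 0.371, 0.561 and 0.753 between HSC and LMPP of adult marrow. Libraries of unlike number there reached 0.477 (HSC 1 with LMPP 2) and 0.377 (HSC 2 with LMPP 1). Those setting number 3 against another number ran from -0.656 to -0.452. This check therefore cannot show that the numbers pair the libraries, and no label states it. Over all groups only 7 of 15 same-number pairs passed 0.1. Sequences came from RefSeq windows of build GRCm38.p6, the same assembly as mm10; chromosome 18 windows were not used here, nor was a genome.

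Named genes are those of fixed lists nearest to a member, the 10 genes with most members, the nearest genes of the 10 strongest members, and, per comparison, the 4 largest rises and falls among called genes with at least 3 members, at least 5 CPM on average and libraries that do not overlap, predicted genes left out; genes of the rank sets and of the printed windows were chosen after their values were seen. The members and lists were chosen with earlier results of these data known. Markers of the sorted cells (Kit, Ly6a, Slamf1, Cd48 and Flt3) summed to 384 to 2030 CPM in every library. The sum joins markers gated in opposite directions in HSC and LMPP, so it cannot tell these cells apart. Kit alone was 738 and 809 CPM in fetal HSC and 1140, 1140 and 195 in adult HSC. In LMPP it was 280, 474 and 526 in fetal and 551, 592 and 158 in adult libraries. Vsig4, Ms4a1 and Cd3e were at 0 in all. Some items are not reported here.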

Additional observations from a re-analysis of the deposited data

Results flagged for a closer look

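For the following genes nearest to a member, the difference between fetal and adult HSC was not the same as that between fetal and adult LMPP, by the interaction term of the edgeR quasi-likelihood fit, which called 0.931% of all tested genes. Values below are the fetal-minus-adult log2 difference in HSC less that in LMPP. The term was 3.81 ± 0.38 for Gfi1 (SE; adjusted p = 0.002), whose RNA was 100.0 and 128 CPM in fetal HSC against 7.24, 10.2 and 10.8 in adult HSC, and 45, 27.2 and 26.7 in fetal LMPP against 32.7, 41.6 and 40.2 in adult LMPP. It was -3.72 ± 0.48 for Rgs1 (adjusted p = 0.0071). It was 2.11 for Flt3, 1.35 for Cd34 and 2.96 for Satb1. Of these, Flt3 is a sort marker. The term was -2.81 for Id1, 3.11 for Ikzf2 and 3.31 for Tspan2. For Dach1 it was 5.95, for Dhrs3 1.75, for Jam3 -2.44 and for Serpinb1a -2.75. All 4 groups held a peak at the members beside these genes. What underlies the differences was not tested.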

How the results depend on the processing

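The number of regions was 13446 and fell to 5761 with only the stronger part of each list by signal value; it was 13010 with 50% of the narrowest peak covered, 12822 and 12068 at 2500 and 5000 bp, 10981 at an irreproducible discovery rate of 0.05, and 14786 to 18004 with 1 list left out. Called genes nearest to a member numbered 326 between fetal and adult HSC, 821 between fetal and adult LMPP, 1004 between LMPP and HSC in adult marrow and 990 in fetal liver. DESeq2 gave 636 for the first. Without the 3 libraries that stood apart the counts were 961, 1570, 1689 and 2001. Leaving out 1 library gave 94 to 325, 514 to 694, 671 to 1209 and 266 to 769; the lowest of the first and the last were without fetal HSC 2. With the replicate number as a block they were 249, 757, 935 and 803. Same-number libraries correlated over 0.1 in 7 of 15 pairs over all groups (from -0.449 to 0.753). All 3 such pairs of adult marrow did, but so did HSC 1 with LMPP 2 and HSC 2 with LMPP 1 there. The libraries are thus known to share only a number. Of the single genes compared in adult marrow, the block ended the call of Pdlim5 (adjusted p = 0.051) and gave one for Bhlhe40, Elf1 and Smarca2 (0.045, 0.027 and 0.031). The other alternatives stayed within 1.5 times. Over 448 genes and comparisons, no direction of a called gene reversed. With each alternative counted separately for each of these, 4330 results stayed the same, 184 lost a call and 175 gained one. The 3 alternatives for CTCF words in regions were not run, for lack of a genome sequence here. With 1 peak list per group, no region can be tested between groups, and with 2 fetal HSC libraries calls there rest on few samples.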
